A study of Mus musculus with 21 samples.

Results

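Condensing spermatids and round spermatids of wild-type mice were compared across all genes, from RNA sequencing of cell fractions prepared from testis. The comparison used the 3 condensing spermatid libraries and the 3 round spermatid libraries labelled *H2al2* WT, which are 6 of the 21 libraries of the series. The other libraries came from pachytene spermatocytes and spermatozoa of the same genotype and from *H2al2* KO mice, whose targeted gene encodes the testis histone variant H2A.L.2. The labels give tissue, cell type and genotype, but no strain, age or number of animals, so the p-values below measure the spread between these libraries. The fractions were purified from testis, and neither purity nor a marker sort is given. All 6 libraries carry both wild-type *H2al2* alleles as labelled, and the gene itself, listed as *H2afb1*, had a raw share of 165 to 242 CPM (read counts scaled to a fixed library total) in wild-type condensing spermatids and 190 to 199 in wild-type round spermatids, against 26.8 to 34.9 in KO condensing and 19.9 to 24.6 in KO round spermatids.

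Round spermatids are the haploid cells that leave meiosis. They build the acrosome and begin the flagellum, and then elongate and condense, replacing their histones first by transition proteins and then by protamines. Transcription stops during this condensation, so that proteins made late are translated from messenger RNAs stored earlier. Sertoli cells, the somatic cells of the seminiferous tubule, hold spermatids in pockets of their surface and take up the residual cytoplasm that they shed.

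Counts on genes ranged from 5876464 to 6676636 per condensing spermatid library and from 7326572 to 7852780 per round spermatid library. Levels below are normalised CPM, scaled over the 6 libraries by the trimmed mean of M values, and log2 fold changes are condensing over round. Among 8 round spermatid markers 7 fell and 0 rose, with a median log2 fold change of -0.73. Among 10 markers of elongating and condensing spermatids 4 rose (*Prm2*, *Odf1*, *Oaz3* and *Smcp*) and 0 fell, and all 10 were already at 214 CPM or more in round spermatids. Their median log2 fold change was 0.21. Among 8 markers of pachytene spermatocytes 6 rose and 2 fell, with a median of 0.62. Of all tested genes 31.4% rose and 24.3% fell. Condensing replicate 3 stood somewhat apart, with the highest levels of protamine, transition protein and outer dense fibre transcripts, and results that rest on it are given without it. Round replicates 2 and 3 were nearly as alike as counting noise allows among genes of 100 to 1000 counts (mean chi-square per gene 1.06, 1 being noise alone), but not among the most abundant genes (8.76). They were kept as separate libraries, and summing them into 1 gave 6711 changed genes in place of the 7552 below. Ribosomal and mitochondrial RNA also moved with the stage: *Rn45s*, the ribosomal RNA precursor, took 2.34% to 3.37% of the counts on genes in condensing and 0.850% to 1.14% in round spermatids. Without the mitochondrial and ribosomal RNA genes in the table, 7441 of the 7539 genes called below that remained were called in the same direction.

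Of 24456 listed genes, 13566 passed the filter on low counts, and 7552 of these (55.7%) differed at an adjusted p under 0.05 in edgeR's quasi-likelihood test. More genes were higher in condensing spermatids (4254, 31.4%) than lower (3298, 24.3%), and the median log2 fold change of all tested genes was 0.05. In bulk samples, fewer cells of a type and less RNA per cell cannot be told apart, and this holds for every difference below. Of the 8087 tested genes with a mean of 10 CPM or more over the 6 libraries, 1964 (24.3%) rose and 2811 (34.8%) fell, and 195 rose 4-fold or more. Of the 5479 tested genes with a lower mean, 2290 (41.8%) rose, 676 of them 4-fold or more, and 487 (8.89%) fell. The rises at low level are in part set by the filter: 381 tested genes were under 1 CPM in each round spermatid library, could pass only through the condensing libraries, and all rose, so that their count carries no information on direction. Falls were moderate throughout. Of the 3298 genes called lower, 481 fell 2-fold or more, and no tested gene had a log2 fold change below -2.73.

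**Figure D1:**
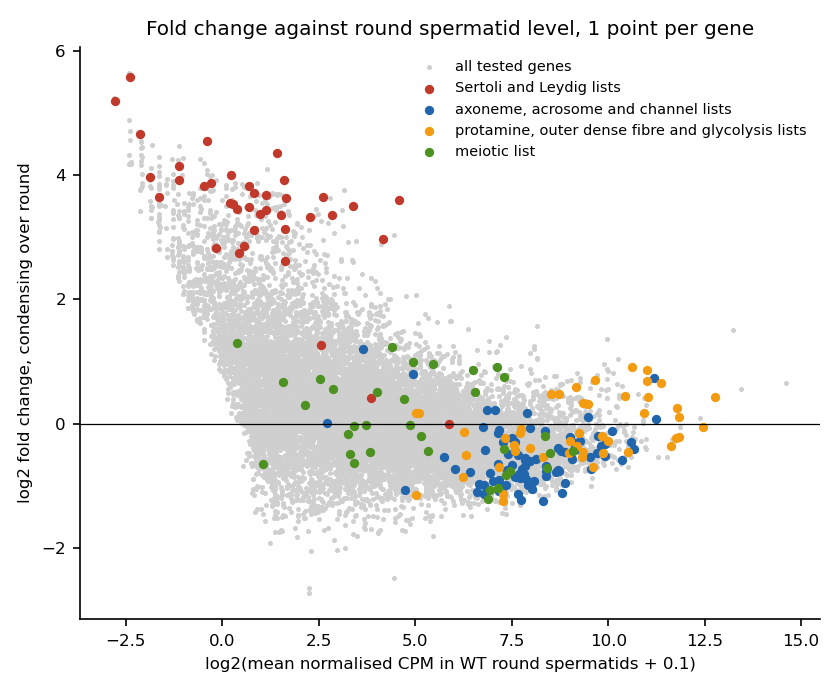
The log2 fold change of condensing over round spermatids is plotted against the mean level in round spermatids (log2 of CPM plus 0.1), with 1 point per tested gene and 4 sets of gene lists in colour. The Sertoli and Leydig lists lie at the upper left, with median log2 fold changes of 3.52 and 3.92, whereas the plotted spermatid lists lie at the right, between -1.25 and 1.202, and the meiotic list between -1.21 and 1.30.

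Transcripts of testicular somatic cells were higher in the condensing fraction. Of the 36 tested members of 8 somatic lists with a mean of 10 CPM or more over the 6 libraries, 31 (86.1%) rose and 1 fell, where 24.3% and 34.8% of all tested genes of that level did. The Sertoli cell list had 10 of 10 members of that level higher. Over all levels it had 22 of 22 tested members higher, 4 of which were under 1 CPM in each round library and could pass the filter only by being higher. Its summed level was 1065, 813 and 1055 CPM in condensing replicates 1 to 3 and 111, 89.3 and 86.7 CPM in round replicates 1 to 3. The condensing libraries were all above the round libraries, 10.2-fold on average (exact two-sided permutation test, p = 0.1, the smallest that 3 against 3 allows). *Clu*, which encodes the secreted chaperone clusterin, had 297, 239 and 325 CPM in condensing and 29.5, 22.7 and 19.2 CPM in round spermatids. It was 3.59 ± 0.17 (SE) higher on the log2 scale (adjusted p = 1.4e-07). *Ctsl*, a lysosomal protease, was at 140 ± 27.8 CPM (SD, n = 3) in condensing and 17.8 ± 3.35 CPM in round spermatids. *Aard* was at 117 ± 19.9 and 10.3 ± 0.367 CPM, and *Wt1*, a transcription factor that defines Sertoli cells in the adult tubule, at 27.1 ± 3.70 and 2.08 ± 0.2502 CPM. *Tsx*, an X-linked gene of Sertoli cells, was at 21.8 ± 7.202 against 1.503 ± 0.380 CPM (log2 3.83). The homeobox genes *Rhox5* (6.59 against 0.359 CPM) and *Rhox8* (9.09 against 0.624 CPM), and *Etd* (10.6 against 0.709 CPM), are among the 4 that the filter could pass in 1 direction only. In each of these genes the lowest condensing library lay above the highest round library. Such non-overlap was common. It held in 1 direction or the other for 8448 of 13566 tested genes, and for 4153 of the 4254 genes called higher.

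Steroidogenic transcripts rose as well. Of 17 tested Leydig cell genes, 16 were higher and 0 lower, 6 of them under 1 CPM in each round library, and of the 9 with a mean of 10 CPM or more 8 were higher. The summed level was 366, 288 and 420 CPM in condensing and 84.5, 98.1 and 99.6 CPM in round spermatids (3.77-fold, exact permutation p = 0.1). *Cyp17a1*, an enzyme of androgen synthesis, had 51.5, 41.0 and 67.0 CPM in condensing and 2.701, 1.73 and 3.31 CPM in round spermatids, a log2 fold change of 4.35 ± 0.24 (SE, adjusted p = 2.1e-07). *Insl3*, the Leydig cell peptide hormone, rose by 3.92, *Star*, which carries cholesterol into mitochondria, by 3.36 and *Hsd3b1* by 4.55. The remaining member, *Scarb1*, a lipoprotein receptor, was the most abundant of the list and stood at 58.3 ± 8.32 in condensing and 58.4 ± 7.44 CPM in round spermatids (adjusted p = 0.98). Without *Scarb1* the log2 ratio of the sums was 3.05 in place of 1.91. Leydig transcripts were not absent from the earlier stage: the 3 pachytene libraries summed to 151, 261 and 269 CPM, whereas the Sertoli sum there was 62.8 to 68.6 CPM.

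The fibroblast sum was 235 to 340 CPM in condensing and 66.3 to 75.4 CPM in round spermatids (4.13-fold, exact permutation p = 0.1). Of 14 tested fibroblast genes 11 rose, with *Sparc*, a matrix protein that Sertoli and other cells also make, at 128 ± 15.3 against 17.3 ± 3.45 CPM (log2 2.89). Of 13 endothelial genes 11 rose, with *Vwf* at 39.1 ± 6.19 against 21.1 ± 0.838 CPM (log2 0.88). Of these 11, 3 were under 1 CPM in each round library and could pass the filter only by being higher. Of 13 genes of peritubular myoid and smooth muscle cells 9 rose, among them *Acta2* (19.8 against 3.50 CPM) and *Myl9* (17.9 against 2.20 CPM), and 1 fell. Of these 9, 1 was under 1 CPM in each round library. With a mean under 10 CPM, 5 of 8 fibroblast, 10 of 12 endothelial, 5 of 7 myoid and 1 of 13 macrophage genes rose. Of all tested genes of that level 41.8% did. The sum of the myoid list was close in both stages, 389 to 534 CPM in condensing and 386 to 392.5 CPM in round spermatids. A single gene, the smooth muscle actin *Actg2*, made 65.7% of it and stood at 296 ± 49.0 against 305 ± 5.06 CPM (adjusted p = 0.78). Without condensing replicate 3 *Actg2* was called lower (log2 -0.19, adjusted p = 0.033). The log2 ratio of the sums was 0.20, and 0.86 without this gene. Of 16 macrophage genes 2 rose and 0 fell. The macrophage scavenger receptor *Mrc1* was among them, at 26.0 ± 5.12 against 6.39 ± 0.687 CPM, while *Aif1* made 74.9% of the summed level and was at 306 ± 73.5 against 378 ± 23.5 CPM (adjusted p = 0.096). *Aif1* was called lower without condensing replicate 3 (log2 -0.52, adjusted p = 0.00036), with the replicate block (adjusted p = 0.017), and with DESeq2 size factors, DESeq2's Wald test or no filter (adjusted p = 0.038, 0.023 and 0.027). The log2 ratio of the macrophage sums was -0.12, and 0.74 without *Aif1*. Of the red blood cell list only *Alas2*, the first enzyme of erythroid haem synthesis, had counts enough to be tested, at 20.5 ± 3.42 against 1.45 ± 0.550 CPM. The summed level of that list was 14.6-fold higher in condensing spermatids but no more than 25.4 CPM, and 2 of 7 members had 0 counts in all 6 libraries. The epididymis list was near 0, with sums of 1.84 to 6.34 CPM in condensing and 1.16 to 5.11 CPM in round spermatids and 9 of 17 members without a count. The spermatogonium list rose in 7 of 12 tested genes and fell in 0. Of its 8 genes with a mean under 10 CPM 3 rose (37.5%, against 41.8% of all tested genes of that level). All 4 with a higher mean rose, where 24.3% of all tested genes did. Its most changed member was *Etv5*, a transcription factor made by both spermatogonia and Sertoli cells, at 21.5 ± 2.45 against 3.19 ± 0.287 CPM, and its most abundant over the 6 libraries was the receptor gene *Kit*, at 17.5 ± 1.79 against 11.3 ± 0.747 CPM.

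**Figure D2:**
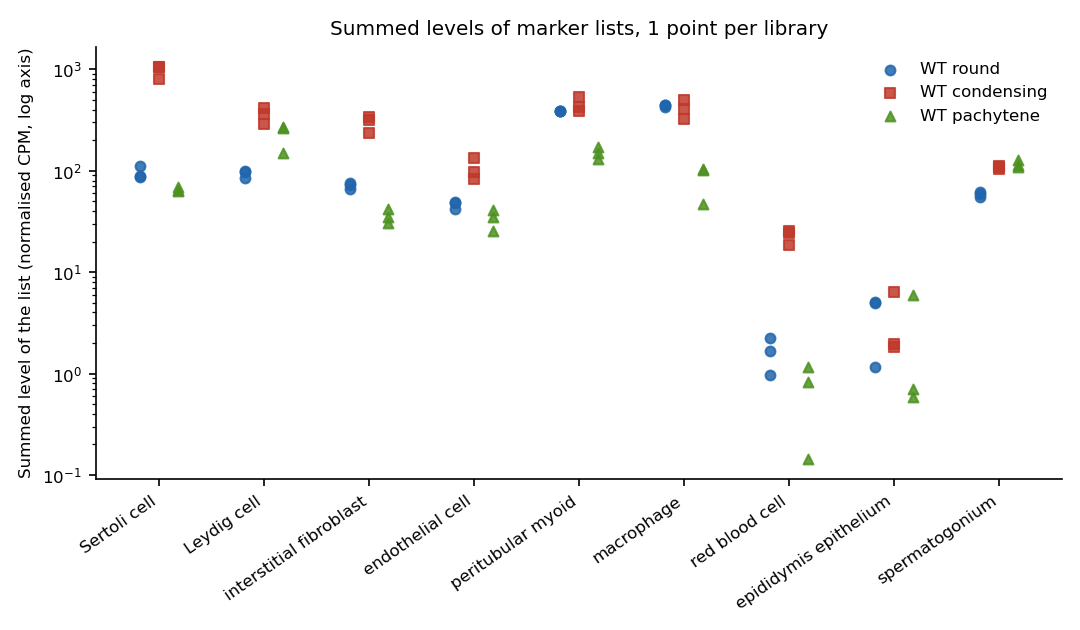
The summed normalised CPM of 9 marker lists is plotted on a log axis, with 1 point per library for wild-type round (circles), condensing (squares) and pachytene (triangles) fractions. Sertoli cell sums were 813 to 1065 CPM in condensing libraries against 86.7 to 111 CPM in round libraries, while the macrophage and epididymis sums overlapped between these stages.

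Over all levels, 72 of 97 tested somatic list genes were higher in condensing spermatids and 1 was lower. Of the 72, 14 were under 1 CPM in each round library. With at least 10 counts required in every library, 40 somatic list genes were called higher. The summed level of all 8 lists was 0.262% of normalised counts in condensing and 0.114% in round spermatids. The 12 most abundant called genes under 1 CPM in each round spermatid library were *Hsd3b1*, *Pfkl*, *Wfdc10*, *Sox8*, *1700018G05Rik*, *Sema3c*, *Etd*, *BC021891*, *Smim10l2a*, *Gstp1*, *Rhox8* and *Arhgef25*, at 8.70 to 16.1 CPM in condensing spermatids. *Sox8*, a transcription factor of the SOX family, had 11.5 CPM in each condensing library and 0.532 to 0.772 CPM in round spermatids. *Wfdc10* stood at 194 and 192 CPM in the spermatozoa libraries, *Pfkl*, the liver form of phosphofructokinase, at 59.1 and 59.3 CPM, and *Gstp1*, a glutathione transferase, at 57.2 and 53.5 CPM. The other 9 had at most 15.5 CPM there, and the pachytene means of the 12 were at most 7.52 CPM. In the 2 spermatozoa libraries the macrophage list summed to 3042 and 2836 CPM and the epididymis list to 1760 and 1853 CPM. A level there can therefore not be assigned to sperm alone. The part of somatic RNA in the changes of other genes could not be separated by a covariate either: the summed somatic level did not overlap between the stages, and with it as a covariate edgeR called 0 of 13566 genes, with 2121 at an unadjusted p under 0.05. The share of somatic cells, their RNA attached to or engulfed with spermatids, and transcription in spermatids cannot be told apart for such genes.

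Of 300 tested genes on 14 lists of spermatid proteins, 45 (15%) were higher in condensing spermatids and 158 (52.7%) were lower, with a median log2 fold change of -0.31. Of the 290 with a mean of 10 CPM or more, 43 (14.8%) rose and 156 (53.8%) fell, where 24.3% and 34.8% of all tested genes of that level did. None of the 45 and none of the 158 was on a somatic list, but the lists were drawn up as separate sets. This absence therefore says nothing on the source of their RNA. The rises fell into separate sets by their level in pachytene spermatocytes, a split made after the values were seen. In 23 of the 45 the pachytene mean was below the round mean, so that levels rose from pachytene to round to condensing. In 20 the pachytene mean was above the condensing mean, so that the round spermatid level was the lowest of the 3, and in 2 it lay between. In the first set the log2 fold changes ran from 0.30 to 3.22 with a median of 0.59, and in the second from 0.31 to 3.04 with a median of 0.80. Of all 13566 tested genes, 42.1% had a pachytene mean above both spermatid stages and 40.8% below both. Among the 4254 genes higher in condensing spermatids these shares were 42.5% and 32.2%, and among the 1311 of them with at least 10 CPM in each round library 60.3% and 27.2%, where all tested genes of that level had 46.6% and 38.6%. The pachytene levels come from libraries that the fold changes did not use, but the round spermatid means enter both the fold change and the order, so these shares are descriptions.

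**Figure D3:**
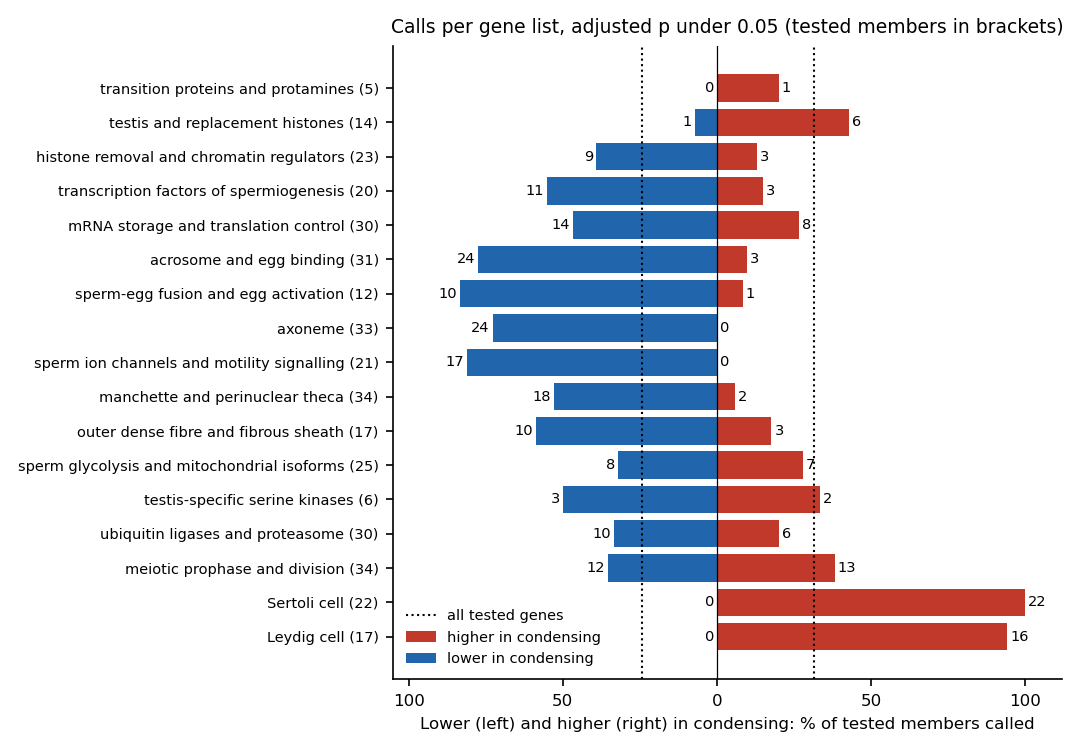
Bars give the percentage of tested members called lower (left, blue) and higher (right, red) in condensing spermatids for 15 germ cell lists and 2 somatic lists, with the number of called members at each bar end and dotted lines at the shares of all tested genes. The fusion, ion channel, acrosome and axoneme lists had 72.7% to 83.3% of members lower, and the Sertoli list had 100% higher.

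Transcripts of the proteins that package the sperm nucleus were abundant at both stages, and 1 of 5 passed the test. The gene of protamine 2, *Prm2* (GRCm38 chr16:10791377-10792105), had 8414, 7654 and 11975 CPM in condensing and 6709, 6964 and 7280 CPM in round spermatids. All condensing libraries were higher, and the log2 fold change was 0.42 ± 0.16 (SE, adjusted p = 0.043). This call was lost on leaving out any 1 of the 3 round libraries (adjusted p = 0.13, 0.13 and 0.098 without replicates 1, 2 and 3). *Prm1*, the other protamine, had 3780, 3151 and 4933 CPM in condensing and 3514, 3673 and 3848 CPM in round spermatids, and the groups overlapped (log2 0.10, adjusted p = 0.58). The transition protein genes *Tnp1* (2946 ± 728 against 3461 ± 285 CPM) and *Tnp2* (3164 ± 798 against 3660 ± 334 CPM) had log2 fold changes of -0.23 and -0.21 with adjusted p of 0.25 and 0.31. Without condensing replicate 3 both were called lower, at -0.42 and -0.40 (adjusted p = 0.012 and 0.016), and *Prm1* had a log2 fold change of -0.09. *Prm3*, which lies with *Prm1*, *Prm2* and *Tnp2* in 1 cluster on chromosome 16, was at 201 ± 32.8 against 214 ± 10.97 CPM. Per kilobase of exon, *Prm2* had 10456 CPM in condensing and 7812 in round spermatids, *Prm1* 6926 and 6442, and *Tnp1* 6741 and 7920.

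Among 14 testis and replacement histones, 6 were higher and 1 was lower in condensing spermatids. Of the 12 with a mean of 10 CPM or more, 41.7% rose and 8.33% fell. Of all tested genes of that level, 24.3% and 34.8% did. The H1 variant of round and elongating spermatids *H1fnt* was the most abundant, at 694 ± 154 against 717 ± 21.3 CPM (adjusted p = 0.80), and *Hils1*, the spermatid linker histone, was at 502 ± 70.3 against 580 ± 12.2 CPM (adjusted p = 0.14). Without condensing replicate 3 both were called lower, by log2 values of -0.24 and -0.34 (adjusted p = 0.012 and 0.0011). *Hils1* was also called lower with DESeq2 size factors and with DESeq2's Wald test (log2 -0.27 each, adjusted p = 0.044 and 0.037). *H2afb1* overlapped between the stages, at 187, 156 and 251 CPM in condensing and 192, 197 and 201 CPM in round spermatids (log2 0.01, adjusted p = 0.98). *H3f3a*, 1 of the genes of the replacement histone H3.3, fell from 308 ± 15.5 to 223 ± 18.9 CPM (log2 -0.47, adjusted p = 0.0022). The largest rise belonged to *Hist1h1t*, the linker histone of spermatocytes, with 166, 212 and 159 CPM in condensing and 28.9, 19.5 and 16.7 CPM in round spermatids (log2 3.04 ± 0.19 SE, adjusted p = 3.6e-07). *Hist1h2ba*, the testis H2B, rose from 58.8 ± 14.4 to 218 ± 43.1 CPM (log2 1.89), *H2afx* from 47.6 ± 10.0 to 82.0 ± 16.1 CPM (log2 0.79) and *Hist1h2aa*, the testis H2A, from 18.2 ± 4.15 to 28.8 ± 1.11 CPM (log2 0.66). Pachytene means of these genes were higher still, at 955 CPM for *Hist1h1t*, 759 CPM for *Hist1h2ba*, 268 CPM for *H2afx* and 64.7 CPM for *Hist1h2aa*.

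The same order of levels was seen in other genes of spermatocytes. *Piwil1*, which encodes the PIWI protein of pachytene piRNAs, had 189.7, 214 and 169.5 CPM in condensing, 74.1, 53.8 and 54.0 CPM in round spermatids and a mean of 1124 CPM in pachytene spermatocytes (log2 1.66 ± 0.14 SE, adjusted p = 3.3e-06). *Tdrd1*, a Tudor protein of the same pathway, was at 131 ± 18.8, 40.4 ± 14.6 and 572 CPM, and *Tdrd5*, another, at 72.8 ± 10.1, 16.1 ± 1.61 and 295 CPM in the same 3 stages. *Gmcl1*, a germ cell BTB protein, was at 115 ± 22.7, 48.5 ± 4.25 and 403 CPM, *Psma8*, the testis form of a proteasome core subunit, at 64.6 ± 8.46, 31.1 ± 1.76 and 224 CPM, and *Supt16*, a subunit of the histone chaperone FACT, at 78.2 ± 13.4, 40.3 ± 8.19 and 211 CPM. Of the 34 genes of meiotic prophase and division, 13 rose and 12 fell, and the pachytene mean was above the condensing mean in 10 of the 13. Of the 25 with a mean of 10 CPM or more 36% rose and 40% fell, where 24.3% and 34.8% of all tested genes of that level did. Among the rises were genes of the chromosome axis and of recombination. *Hormad1* had 50.9, 66.8 and 63.8 CPM in condensing and 29.5, 31.5 and 30.6 CPM in round spermatids (log2 0.99, adjusted p = 4.8e-05), *Sycp3*, of the lateral element of the synaptonemal complex, rose by 0.97 and *Mlh3*, of the crossover resolvase, by 1.23. *Cdk1*, the cell cycle kinase, rose as well (22.7 ± 2.44 against 15.9 ± 2.26 CPM, log2 0.51), a call lost without condensing replicate 1 (adjusted p = 0.066) and without round replicate 3 (adjusted p = 0.062). Among the falls were the cell division genes *Ccnb1* (58.3 ± 11.6 against 122.97 ± 11.9 CPM), *Plk1* (69.1 ± 14.3 against 142 ± 11.1 CPM), *Ccnb2* (91.2 ± 14.5 against 162 ± 11.4 CPM) and *Ccna1* (103 ± 12.8 against 175 ± 20.05 CPM), while *Aurka*, another division kinase, was at 118 ± 26.2 against 156 ± 33.0 CPM (adjusted p = 0.067). *Aurka* was called lower without condensing replicate 2 (adjusted p = 0.042), without round replicate 2 (adjusted p = 0.0498), and with DESeq2's Wald test (adjusted p = 0.023), its size factors (adjusted p = 0.046), no filter (adjusted p = 0.026) or the replicate block (adjusted p = 0.0030). The meiotic cohesin gene *Rec8* fell the most of the list (51.3 ± 2.28 against 119 ± 2.24 CPM, log2 -1.21), and *Stag3*, another meiotic cohesin gene and the most abundant member, fell by 0.45. A share of spermatocytes in the condensing fraction and retained or renewed transcripts in condensing spermatids cannot be told apart from these libraries.

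The rises with pachytene levels below round levels held transcripts of the sperm tail and midpiece. *Odf1*, the main protein of the outer dense fibres that stiffen the tail, had 2841, 2607 and 3492 CPM in condensing and 1552, 1581 and 1615 CPM in round spermatids (log2 0.91 ± 0.13 SE, adjusted p = 9.3e-05). Its level was 299 CPM in pachytene spermatocytes and 15288 and 14795 CPM in the 2 spermatozoa libraries. *Oaz3*, the antizyme of haploid germ cells, had 3809, 3261 and 4279 CPM in condensing and 2056, 2047 and 2112 CPM in round spermatids (log2 0.87 ± 0.12, adjusted p = 1.1e-04). *Smcp*, a cysteine-rich protein of the mitochondrial sheath, rose from 2062 ± 103 to 3324 ± 535 CPM (log2 0.69) and *Spata18* from 807 ± 32.1 to 1313 ± 283 CPM (log2 0.70). In each of these genes all condensing libraries were above all round libraries, as in 4153 of the 4254 genes called higher. Of all tested genes with a mean of 10 CPM or more, 24.3% rose and 34.8% fell. The outer dense fibre and fibrous sheath list, all of that level, had 3 of 17 members higher (17.6%) and 10 lower (58.8%). Its most abundant members did not pass the test: *Odf2* was at 5459 ± 981 against 5658 ± 34.4 CPM (adjusted p = 0.77) and *Akap4*, the scaffold of the fibrous sheath, at 4171 ± 1016 against 3501 ± 101 CPM (adjusted p = 0.18). Without condensing replicate 3 *Odf2* was called lower (log2 -0.21, adjusted p = 0.0065). The falls were led by *Fsip1* (65.2 ± 2.36 against 154 ± 34.4 CPM, log2 -1.24), *Akap14* (14.7 ± 2.21 against 32.5 ± 5.64 CPM, log2 -1.15) and *Tssk4* (70.7 ± 8.65 against 155 ± 2.84 CPM, log2 -1.13).

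Of 25 genes of sperm glycolysis and mitochondrial isoforms, 7 (28%) rose and 8 (32%) fell. All 25 had a mean of 10 CPM or more, and the shares are near those of all tested genes of that level (24.3% and 34.8%). *Hk1*, the hexokinase that sperm anchor to the fibrous sheath in a form of their own, had 3850, 3762 and 4935 CPM in condensing and 2655, 2642 and 2693 CPM in round spermatids (log2 0.65 ± 0.13, adjusted p = 0.0011). Other enzymes of the pathway that rose were *Gpi1*, from 578 ± 10.9 to 874 ± 203 CPM (log2 0.59), *Tpi1*, from 421 ± 22.4 to 585 ± 93.8 CPM (log2 0.47) and *Pgk2*, the germ cell phosphoglycerate kinase, from 1395 ± 25.03 to 1891 ± 195 CPM (log2 0.44, not called over 9 libraries, adjusted p = 0.0575). The aldolases *Aldoart1* and *Aldoart2*, *Gapdhs* and *Pgam2* did not pass the test, with log2 fold changes of -0.16, -0.28, 0.17 and -0.15 (adjusted p = 0.49, 0.073, 0.27 and 0.23). Without condensing replicate 3 both aldolases were called lower (log2 -0.45 each, adjusted p = 0.0086 and 0.00026), and without condensing replicate 2 *Gapdhs* was called higher (log2 0.29, adjusted p = 0.047). *Aldoart2* was also called lower under 5 other settings, with adjusted p from 0.014 to 0.042. *Ldhc*, the germ cell lactate dehydrogenase, fell from 3187 ± 129 to 2477 ± 90.6 CPM (log2 -0.36), *Eno4*, the sperm enolase, by 0.86, and *Cox6b2*, the testis form of a cytochrome oxidase subunit, and the glycerol kinase *Gk2* by 0.70 each. The 6 testis-specific serine kinases were split in the same way. *Tssk6*, which is required for histone replacement, had 532, 548 and 687 CPM in condensing and 294, 275 and 283 CPM in round spermatids (log2 1.05 ± 0.12, adjusted p = 1.8e-05), and *Tssk3* rose by 0.65. *Tssk1*, *Tssk4* and *Tssk5* fell by 0.66, 1.13 and 0.92, and *Tssk2*, the most abundant, was at 603 ± 111.98 against 626 ± 7.57 CPM (adjusted p = 0.74). Without condensing replicate 3 it was called lower (log2 -0.22, adjusted p = 0.011).

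**Figure D4:**
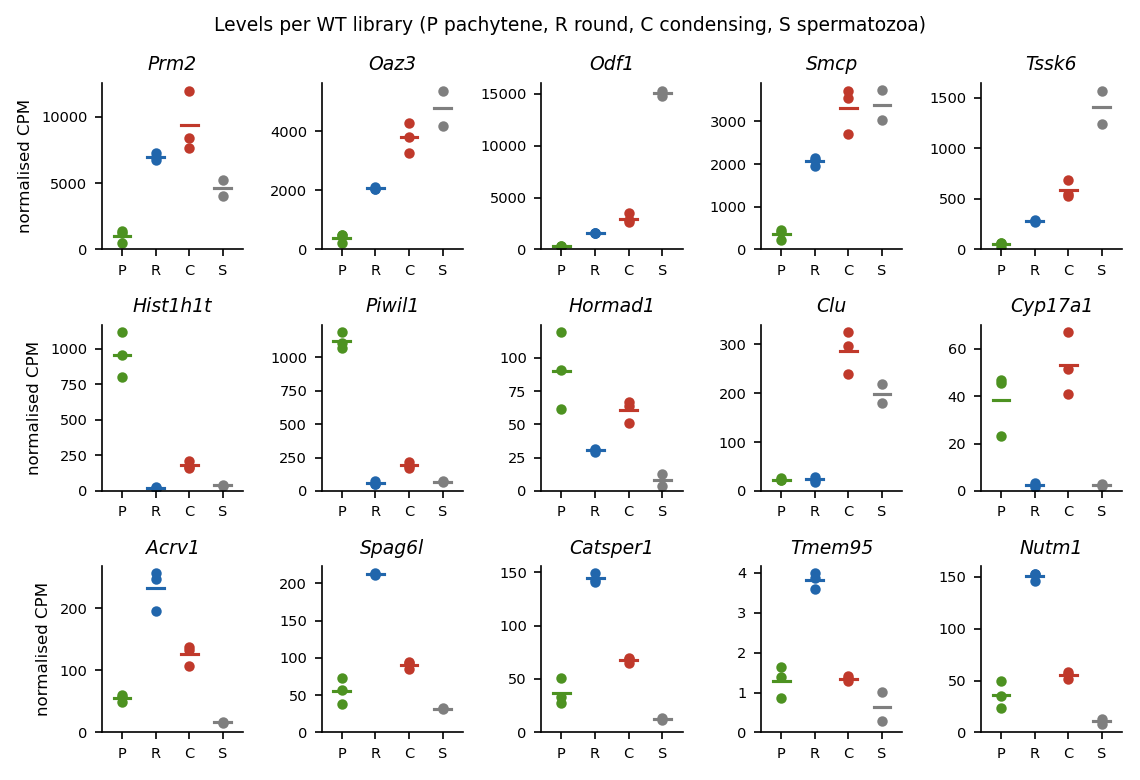
Levels of 15 genes are plotted in normalised CPM on linear axes that start at 0, with 1 point per wild-type library (P pachytene, R round, C condensing, S spermatozoa) and a line at each group mean. *Odf1* and *Tssk6* rose from stage to stage up to spermatozoa, *Hist1h1t*, *Piwil1* and *Hormad1* were lower in round spermatids than in the fractions on either side, and *Acrv1* to *Nutm1* in the bottom row were highest in round spermatids.

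Transcripts of the acrosome, the vesicle that carries the enzymes and receptors used at the egg, fell together. Of 31 tested genes 24 were lower and 3 higher in condensing spermatids, with a median log2 fold change of -0.73. Of the 30 with a mean of 10 CPM or more, 80% fell and 10% rose. Of all tested genes of that level, 34.8% and 24.3% did. *Acrv1*, a protein of the acrosomal matrix, had 137, 133 and 108 CPM in condensing and 195, 247 and 256 CPM in round spermatids (log2 -0.88 ± 0.13 SE, adjusted p = 1.6e-04). *Spaca1*, which is needed to shape the acrosome, was at 125 ± 5.65 against 261 ± 35.5 CPM (log2 -1.06), and *Acr*, the acrosomal protease, at 129 ± 17.8 against 226 ± 4.22 CPM (log2 -0.80). The largest falls were those of *Zan*, a zona-binding protein (91.6 ± 9.18 against 202 ± 7.32 CPM, log2 -1.14), *Spaca3* (49.5 ± 2.72 against 109 ± 7.88 CPM, log2 -1.14), *Spam1*, a hyaluronidase (71.0 ± 8.37 against 153 ± 14.6 CPM, log2 -1.11), and *Spaca4* (45.1 ± 6.25 against 96.5 ± 4.05 CPM, log2 -1.10). All condensing libraries were below all round libraries in these genes, as in 3169 of the 3298 genes called lower. *Crisp2*, a secretory protein of acrosome and tail and the most abundant member, rose, with 3532, 3699 and 4458 CPM in condensing and 1944, 2577 and 2494 CPM in round spermatids (log2 0.74 ± 0.14, adjusted p = 9.1e-04). The other rises, *Gopc* (28.3 ± 2.14 against 12.3 ± 0.593 CPM) and *Tex101* (52.8 ± 2.86 against 30.5 ± 4.76 CPM), had pachytene means of 78.4 and 153 CPM. Of 12 genes of sperm-egg fusion and egg activation, 10 fell and 1 rose. Of the 11 with a mean of 10 CPM or more, 81.8% fell and 9.09% rose, against the same shares of all tested genes. *Izumo1*, the sperm ligand of the egg receptor, had 49.95, 56.2 and 46.5 CPM in condensing and 77.4, 89.3 and 86.4 CPM in round spermatids (log2 -0.73, adjusted p = 1.9e-04). *Tmem95* had the largest fall but few reads (1.35 ± 0.0668 against 3.82 ± 0.197 CPM, log2 -1.49 ± 0.28), and *Tmem81* was at 15.3 ± 0.359 against 33.7 ± 2.15 CPM (log2 -1.13). *Plcz1*, the phospholipase that activates the egg, was at 423 ± 12.9 against 344 ± 21.5 CPM (log2 0.30, adjusted p = 0.020). Its call was lost without condensing replicate 1 (adjusted p = 0.065) and without each round library (adjusted p = 0.088, 0.0625 and 0.079).

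The axoneme, the microtubule core of the tail, is assembled from the round spermatid stage on. Of 33 tested genes 24 (72.7%) fell and 0 rose, with a median log2 fold change of -0.50. All 33 had a mean of 10 CPM or more, and of all tested genes of that level 34.8% fell and 24.3% rose. *Tekt4*, a filament protein of the doublet microtubules, had 150.2, 145 and 105 CPM in condensing and 331, 308 and 316 CPM in round spermatids (log2 -1.25 ± 0.13 SE, adjusted p = 1.3e-05). *Spag6l*, of the central pair, had 92.7, 94.4 and 84.4 CPM in condensing and 212, 214 and 212 CPM in round spermatids (log2 -1.23 ± 0.10, adjusted p = 1.6e-06). *Tekt2* fell by 1.12, *Tekt3* by 0.92, *Tekt1* by 0.76 and the tubulin gene *Tubb4b* by 0.58. The dynein intermediate chain gene *Dnaic2* was at 68.7 ± 8.52 against 130.3 ± 8.79 CPM, the tubulin ligase *Ttll9* at 115 ± 3.32 against 211 ± 7.62 CPM and the nexin-dynein regulator *Drc1* at 97.4 ± 12.1 against 166 ± 11.4 CPM. The groups did not overlap in any of them, nor did they in 3169 of the 3298 genes called lower. The most abundant member, the outer arm dynein heavy chain *Dnah8*, was at 2510.2 ± 271 against 2398 ± 161 CPM (adjusted p = 0.66).

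Promoters were searched because the axoneme genes moved together. *Rfx2*, a factor that binds the X-box motif of cilium genes, fell from 429 ± 2.58 to 328 ± 21.8 CPM (log2 -0.39, adjusted p = 0.0047). A link between *Rfx2* and the axoneme genes was not tested. The letters GTTGCC, the core of 1 arm of the X-box, were searched on both strands in RefSeq windows of GRCm38.p6 from 250 bases before to 50 bases after each start, as were TGACGTCA, the full cyclic AMP response element bound by CREM, and its part TGACG. The longer X-box form GTTGCCATG, and TATAAA and CACGTG, were searched too. A gene with several starts counts if any of its windows holds the letters. Of 21 falling axoneme genes with a window, 10 (47.6%) held GTTGCC, against 5 of 18 falling acrosome genes (27.8%), 3 of 31 spermatid list genes that rose (9.68%), 21.0% of 2692 genes that fell, 13.3% of 3383 genes that rose and 16.2% of 10876 tested genes, and 12.5% of all windows. TGACGTCA was held by 6 of 125 falling spermatid list genes (4.80%), 0 of 31 rising ones, 3.61% of tested genes and 1.79% of all windows. TGACG was held by 29.6% of the falling and 45.2% of the rising spermatid list genes, 33.8% of tested genes and 20.8% of all windows. GTTGCCATG was held by 0 of 21 falling axoneme genes, 0 of 125 falling spermatid list genes and 1.04% of tested genes. TATAAA and CACGTG were held by 6.40% and 12.8% of the falling spermatid list genes and 9.01% and 11.3% of tested genes. A match is a description of the letters, and the motifs were chosen with the fold changes known. Shares were not counted among axoneme genes that did not fall, so the 47.6% cannot be tied to the fall. Stretches are shown where the motif lies upstream of the outermost annotated start of the gene. *Tekt2* was the falling axoneme gene with GTTGCC in such a place, and *Spag6l* and *Izumo1* had the largest falls among spermatid list genes with TGACGTCA there. They are printed on the strand of the gene with the motif in capitals.
Tekt2: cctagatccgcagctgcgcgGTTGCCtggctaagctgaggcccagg
Spag6l: agccttccccactctggccgTGACGTCAc
Izumo1: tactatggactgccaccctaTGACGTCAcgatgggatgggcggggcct
They lie at chr4:126325759-126325804 on the minus strand (*Tekt2*), chr16:16829364-16829392 on the minus strand (*Spag6l*) and chr7:45621695-45621742 on the plus strand (*Izumo1*). The motif began 96 bases before the start in *Tekt2* and *Izumo1* and 9 in *Spag6l*.

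Ion channels and the signalling proteins of motility were lower in 17 of 21 tested genes (81%) and higher in 0, with a median log2 fold change of -0.60. All 21 had a mean of 10 CPM or more, and of all tested genes of that level 34.8% fell and 24.3% rose. Of the 8 subunit genes on the list for CatSper, the calcium channel of the sperm tail, 7 fell. *Catsper1* had 68.4, 70.1 and 65.2 CPM in condensing and 140.3, 143 and 149 CPM in round spermatids (log2 -1.08 ± 0.09 SE, adjusted p = 3.7e-06), *Catsper2* fell by 0.79 and *Catsper4* by 0.98, while *Catsperb* was at 104 ± 9.85 against 108 ± 9.54 CPM (adjusted p = 0.73). *Kcnu1*, the pore of the sperm potassium channel, was at 82.5 ± 4.62 against 164 ± 6.70 CPM (log2 -0.99), and its partner *Lrrc52* at 12.6 ± 1.72 against 26.5 ± 5.78 CPM (log2 -1.07). *Atp1a4*, the sodium pump of sperm and the most abundant member, was at 1017 ± 239 against 1104 ± 59.7 CPM (adjusted p = 0.52), and was called lower without condensing replicate 3 (log2 -0.33, adjusted p = 0.0020). Of 34 genes of the manchette, the microtubule skirt that shapes the head, and of the perinuclear theca, 18 fell and 2 rose. Of the 33 with a mean of 10 CPM or more, 51.5% fell and 6.06% rose, against the same shares of all tested genes. *Actl7b*, a testis actin-like protein, had 422, 393 and 318 CPM in condensing and 793, 742 and 736 CPM in round spermatids (log2 -1.003 ± 0.12, adjusted p = 3.0e-05), and *Sun5*, which couples tail and head, fell by 0.88. *Ift20*, of intraflagellar transport, was at 16.7 ± 0.732 against 11.6 ± 0.471 CPM (log2 0.53, not called by DESeq2's Wald test, adjusted p = 0.0525), and *Spata20*, the most abundant, at 1449 ± 298 against 1588 ± 29.9 CPM (adjusted p = 0.43). *Spata20* was called lower without condensing replicate 3 (log2 -0.32, adjusted p = 0.00074).

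Of 23 chromatin genes 9 fell and 3 rose. Among those with a mean of 10 CPM or more, 42.9% fell and 14.3% rose, which is near the shares of all tested genes of that level (34.8% and 24.3%). *Nutm1*, which recruits p300 for the acetylation of histones before their removal, had 56.1, 58.0 and 52.0 CPM in condensing and 153, 146 and 153 CPM in round spermatids (log2 -1.44 ± 0.10 SE, adjusted p = 6.3e-07). *Phf7*, a histone ubiquitin ligase and the most abundant of the list, was at 1718 ± 30.0 against 2491 ± 26.3 CPM (log2 -0.54), *Hspa2*, the testis HSP70 chaperone of transition proteins, at 933 ± 177 against 1351 ± 90.4 CPM (log2 -0.53), *Hdac1*, a histone deacetylase, at 119.8 ± 19.6 against 195 ± 10.4 CPM (log2 -0.70), and *Atad2*, an ATPase with a bromodomain, at 55.9 ± 8.02 against 87.8 ± 14.9 CPM (log2 -0.65, adjusted p = 0.0026). Among the rises were *Supt16* and the ubiquitin ligase gene *Ubr2* (19.5 ± 1.59 against 12.8 ± 2.54 CPM). Of 20 transcription factor genes 11 fell and 3 rose, and among those of that level 57.9% fell and 15.8% rose. *Sox5* fell from 178 ± 4.53 to 85.1 ± 11.3 CPM (log2 -1.06), *Hsf2* from 94.4 ± 14.8 to 45.2 ± 6.56 CPM (log2 -1.06), *Taf7l* from 49.8 ± 6.64 to 27.8 ± 1.12 CPM (log2 -0.84), *Creb3l4* from 385 ± 35.1 to 222 ± 24.98 CPM (log2 -0.79) and *Crem*, the main activator of haploid transcription, from 234 ± 11.2 to 167 ± 7.30 CPM (log2 -0.49, adjusted p = 9.9e-04). *Kif17*, a kinesin that moves the CREM co-activator, was the most abundant of that list, at 687 ± 90.9 against 604 ± 2.43 CPM (adjusted p = 0.18).

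Messenger RNA storage and translation control had 14 of 30 genes lower and 8 higher, and of the 28 with a mean of 10 CPM or more 50% fell and 25% rose. Of all tested genes of that level 34.8% fell and 24.3% rose. *Pabpc1*, the poly(A) binding protein, was the most abundant, with 2067, 2247 and 1779 CPM in condensing and 2972, 2979 and 2902 CPM in round spermatids (log2 -0.54, adjusted p = 0.0020), and its testis relative *Pabpc2* fell by 0.73. *Tdrd7*, a Tudor protein of the chromatoid body, fell by 0.80, and the helicase *Ddx25* by 0.63. The largest rise, that of *Nxf3*, a member of the RNA export factor family, was from 3.74 ± 1.03 to 35.1 ± 6.04 CPM (log2 3.22 ± 0.21 SE), and its pachytene mean was 1.61 CPM. The median log2 fold change of the Sertoli cell list was 3.52, and whether *Nxf3* RNA came from somatic cells was not tested. *Ctif*, a translation initiation factor, rose from 1.11 ± 0.178 to 4.31 ± 1.01 CPM. *Uchl1*, on the list of ubiquitin ligases and proteasome genes, rose from 8.81 ± 0.637 to 24.6 ± 0.773 CPM (log2 1.48), and is known as a product of spermatogonia and Sertoli cells too. That list had 10 members lower (33.3%) and 6 higher (20%) of 30, all with a mean of 10 CPM or more. These shares are near those of all tested genes of that level (34.8% and 24.3%). *March10*, a ubiquitin ligase of the elongating spermatid, was at 740.2 ± 23.2 against 1050.1 ± 55.7 CPM (log2 -0.50). The deubiquitinases *Usp26* and *Usp8* were down by 0.84 and 0.71. *Nxf3*, *Ctif*, *Uchl1* and *Tssk6* were the only genes with pachytene levels below round levels, among the 45 spermatid list genes that rose, to reach a log2 fold change of 1.

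Among genes at 10 CPM or more in each round spermatid library, the 12 largest rises without overlap mixed the groups described above. *Clu*, *Aard*, *Ctsl* and *Sparc* are on somatic lists. *Hist1h1t*, *Tdrd5* and *Tacc1* (134 ± 3.36 against 32.1 ± 5.33 CPM) had pachytene means above their condensing means, at 955, 295 and 222 CPM. *Lrp1*, the endocytic receptor, was at 72.4 ± 16.2 against 14.3 ± 1.89 CPM (log2 2.34) with 7.69 CPM in pachytene spermatocytes and 228 and 195 CPM in spermatozoa. *Abca1*, the cholesterol exporter, was at 54.0 ± 13.8 against 12.8 ± 2.41 CPM, with 17.7 CPM in pachytene spermatocytes and 253 and 217 CPM in spermatozoa. The spermatozoa libraries also held macrophage and epididymis transcripts, as given above, so the source of these levels is not known. *Lonrf3*, a RING finger gene, was at 70.6, 55.2 and 68.01 CPM in condensing and 13.4, 12.5 and 10.8 CPM in round spermatids (log2 2.40 ± 0.14 SE, adjusted p = 2.7e-07) and was under 10 CPM in pachytene spermatocytes and in spermatozoa. The ubiquitin ligase *Nedd4* (73.1 ± 8.56 against 17.0 ± 2.93 CPM) and the microtubule protein *Map1b* (75.9 ± 5.97 against 15.5 ± 2.17 CPM) complete the 12. The 12 largest falls were smaller, with log2 fold changes of -1.52 to -2.49, and belonged to little-studied genes of 12.7 to 41.9 CPM in round spermatids: *Gm5591*, *Gm5114*, *Speer4b*, *Gm16325*, *Cldn34b1*, *4932416K20Rik*, *Gm4884*, *1700041C23Rik*, *Zfp819*, *Gm10377*, *Speer4f1* and *1810020O05Rik*. *Gm5591* had 3.17, 2.55 and 5.99 CPM in condensing and 10.9, 24.5 and 29.3 CPM in round spermatids (log2 -2.49 ± 0.38, adjusted p = 1.8e-04). Each of the 12 was lower in pachytene spermatocytes than in round spermatids, at 1.496 to 12.5 CPM. *Speer4b* and *Speer4f1* belong to a family of near-identical copies, and reads that align to several places were not counted, so that their levels are uncertain.

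The 12 genes with the highest CPM in condensing spermatids made 12.7% of normalised counts there and 8.19% in round spermatids. Besides *Prm2*, *Odf2*, *Hk1*, *Akap4*, *Prm1*, *Crisp2* and *Oaz3* they were the scaffold gene *Akap12* (5658 ± 1244 against 5299.7 ± 400.0 CPM, adjusted p = 0.62), *Fhl4*, a LIM protein of the testis (3623 ± 293 against 3751 ± 99.4 CPM, adjusted p = 0.72), *Rn45s*, *mt-Rnr2* and *mt-Rnr1*. Mitochondrially encoded transcripts rose together: 10 of 10 tested protein genes were higher, with a median log2 fold change of 1.23. Of all tested genes 31.4% were higher. The levels of the protein genes were uneven. In condensing against round spermatids *ATP6* was at 4.49 against 1.81 CPM, *COX2* at 9.86 against 5.58 CPM and *COX3* at 9.19 against 4.35 CPM. Reads that align to several places were not counted, and whether this lowered some of these levels was not tested. *COX1* had 3013, 2193 and 2316 CPM in condensing and 1255, 1217 and 1168 CPM in round spermatids (log2 1.05), and *ND6* was at 81.8 ± 12.2 against 20.3 ± 0.846 CPM (log2 2.01). Pachytene and condensing levels of *COX1* were close, at 2561 and 2507 CPM. The ribosomal RNA *mt-Rnr2* rose by 0.65, and *mt-Rnr1* by 0.56 with overlap between the groups. The call of *mt-Rnr1* was lost without condensing replicate 1 (adjusted p = 0.066) and without round replicates 1 and 3 (adjusted p = 0.052 and 0.076). Nuclear genes of oxidative phosphorylation had 15 of 76 members higher, 19 lower and a median log2 fold change of -0.08, and cytosolic ribosomal protein genes had 13 of 75 higher and 7 lower. With a mean of 10 CPM or more, 13.2% of the first rose and 27.9% fell, and 14.5% and 8.7% of the second. Of all tested genes of that level 24.3% rose and 34.8% fell. Of 507 tested X-linked genes 209 (41.2%) were higher and 116 (22.9%) lower, against 31.4% and 24.3% of all tested genes. Of the 209, 45 were under 1 CPM in each round library and could pass the filter only by being higher. Without such genes 35.5% of 462 X-linked genes were higher and 25.1% lower, against 29.4% and 25% of all 13185. Of the 183 X-linked genes with a mean of 10 CPM or more 25.7% were higher and 35.5% lower, near the shares of all genes of that level. Of 12 tested Y-linked genes 2 were higher and 5 lower. Without the members of somatic lists the X-linked counts were 202 and 116 of 500.

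The same contrast was looked up in the KO libraries, which share none with the 6 above. There 7675 of 13557 tested genes (56.6%) were called, 4296 (31.7%) higher and 3379 (24.9%) lower in condensing spermatids. Of the 4254 genes higher in wild-type condensing spermatids, 4112 were tested in the KO and 3618 (88.0%) were called higher there and 0 lower. Of the 3298 genes lower in wild type, 3287 were tested and 2712 (82.5%) were called lower and 1 higher, so that 6330 genes were called in the same direction in both genotypes. Of the 45 rises and 158 falls of the spermatid lists, 41 and 140 were called in the same direction. *Clu* differed by 3.66, *Hist1h1t* by 2.96, *Odf1* by 1.14, *Spag6l* by -1.07 and *Nutm1* by -1.28 on the log2 scale in the KO. *Prm2* was at 0.27 there (adjusted p = 0.18). A test of the difference between the wild-type and KO contrasts over 12 libraries (edgeR) called 0 of 14248 genes at an adjusted p under 0.05, and 559 had an unadjusted p under 0.05.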

How the data were processed

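RNA of cell fractions was sequenced from ribosomal RNA-depleted, stranded total RNA libraries (paired reads). The authors aligned the reads to mm10 with STAR 2.7.11b and deposited raw read counts per gene from HTSeq, which counted exons on the reverse strand and left out reads with several alignments. Each file closes with 5 rows that name no gene (34.8% to 48.4% of counted reads here), which were left out. Counts of the 6 libraries were tested with edgeR 4.0.16 (R 4.3.3): TMM scaling, filterByExpr, a quasi-likelihood F test and Benjamini-Hochberg adjustment at 0.05 over all tested genes. On counts simulated for this comparison (13485 genes tested, 200 changed), 96% of 2-fold and 100% of 4-fold changes were recovered. Of 203 genes called, 7 were unchanged. The changed genes were well covered, rose and fell in equal number, and shared a single dispersion. Recovery at low counts, or where most genes change, was therefore not tested. Pachytene and spermatozoa levels were scaled with TMM over 11 wild-type libraries. Positions came from RefSeq, GRCm38. Alternatives, given in the closing section, included DESeq2 1.42.0.

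The comparison, the gene lists and the tests were chosen with earlier results of these data known. Named genes are, per list, members with the highest mean CPM and the largest called changes, the 12 largest non-overlapping rises and falls among genes at 10 CPM or more in each round library, the 12 most abundant called genes under 1 CPM there, the 12 most abundant genes in condensing spermatids, and *H2afb1*. Other named genes, among them the mitochondrially encoded ones and those of the promoter stretches, were chosen after their values were seen. Some list members that count in the totals are not reported here by name.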

Additional observations from a re-analysis of the deposited data

How the results depend on the processing

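The counts of genes changed, higher and lower lay between 6421 and 7623, 3687 and 4299, and 2728 and 3532 on leaving out each library, those of somatic markers higher between 67 and 82, and those of spermatid list genes higher and lower between 36 and 47 and between 133 and 185. The other alternatives, except the covariate, gave 6265 to 8095 changed genes (DESeq2's Wald test 6783). With at least 10 counts required in every library, 40 somatic markers were higher, since fewer genes were tested. With the summed somatic level as a covariate edgeR gave 0 for each of these 6 counts (2121 genes had an unadjusted p under 0.05). The share of calls that were higher was 56.3% with TMM, 51.5% with DESeq2 size factors and 60.7% with library size alone. A replicate block gave 8095 called genes, among them 7493 of the 7552. Correlations of same-numbered libraries' deviations were 0.300, -0.127 and 0.279, and replicate 2 did not correlate best with its own number, so the numbers were not taken as pairs. Leaving out each library, the log2 ratio of the sums ran from -0.28 to 0.023 for macrophage and from -0.83 to 0.24 for epididymis genes (0.12, 0.19, 0.21 and 0.24 where positive), and the 6330 wild-type calls also found in the same direction in the KO from 5815 to 6433 on leaving out each KO library. Over 172 named genes, 2818 values kept direction and call, 145 lost and 30 gained the call, and 60 changed sign. Outside the covariate the sign changes were those of 11 genes with log2 fold changes near 0, which ran, leaving out each library, from -0.091 to 0.24 *Prm1*, -0.21 to 0.024 *Prm3*, -0.24 to 0.062 *H1fnt*, -0.20 to 0.14 *H2afb1*, -0.21 to 0.032 *Odf2*, -0.13 to 0.061 *Scarb1*, -0.19 to 0.030 *Actg2*, -0.031 to 0.12 *Dnah8*, -0.11 to 0.16 *Akap12*, -0.22 to 0.026 *Tssk2*, -0.13 to 0.0028 *Catsperb*. *H2afb1* was at -0.060 both with the Wald test and with DESeq2 size factors, -0.047 without the filter, -0.019 with the replicate block, -0.017 over 9 libraries, -0.018 without mitochondrial and ribosomal RNA, and -0.0027 with round replicates 2 and 3 summed. *Scarb1* was at 0.026 with these summed, 0.032 by library size and 0.043 with 10 counts in every library, where *H1fnt* was at 0.00074 and *Actg2* at 0.0040. With the covariate the values were -1.04 *Prm2*, -1.43 *Prm1*, -1.60 *H2afb1*, 0.58 *Hspa2*, 0.12 *Hdac1*, 0.22 *Pabpc1*, 0.0015 *Pabpc2*, 0.21 *Ddx25*, -0.995 *Akap4*, -0.093 *Oaz3*, -0.048 *Odf1*, -0.18 *Hk1*, -0.52 *Smcp*, -0.66 *Spata18*, -0.54 *Gpi1*, 0.11 *Cox6b2*, -0.56 *Tssk3*, 0.51 *Stag3*, 0.15 *Ccnb1*, 0.27 *Ccnb2*, 0.059 *Ccna1*, -0.11 *Vwf*, -1.20 *mt-Rnr1*, -0.75 *mt-Rnr2*, 0.0070 *Drc1*, -0.53 *Kif17*, -0.93 *Akap12*, -0.22 *Pgk2*, -0.48 *Tpi1*, 0.95 *Aurka*, -1.04 *Gapdhs*, 0.58 *Catsperb*. The summed somatic level was 2154 to 2984 CPM in condensing and 1128 to 1154 CPM in round libraries. With 3 libraries a stage, this covariate and the stage can hardly be separated. The values with the covariate are therefore not effects freed of somatic RNA. The *Prm2* call was also lost with DESeq2 size factors (0.35, adjusted p = 0.058), over 9 libraries (0.40, 0.26) and with round replicates 2 and 3 summed (0.42, 0.11). With 3 libraries a stage, an exact test of a single value cannot go below 0.1.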
